A study of Rattus norvegicus with 2 samples.

Results

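The BCL2 family of apoptosis genes was described here by 10 members, of 23282 genes measured, in rat (Rattus norvegicus) embryonic stem cells. The members were the rows of the deposited gene table with the symbols Bax, Bak1, Bcl2l11, Bbc3, Bid, Bad, Pmaip1, Bcl2, Bcl2l1 and Mcl1, and each symbol had 1 row. The cells were the Dark Agouti line DA-EC8/Rrrc, wild type, at passage 30 and with a karyotype labelled as normal. They had no treatment and were grown in 2i medium, which as background holds inhibitors of the kinases MEK and GSK3. Total RNA of 2 samples, which the series design calls biological replicates, was sequenced, and both samples form 1 group. There is no contrast between conditions, so the levels are given as each replicate's value and as mean ± SD (n = 2), and the comparison is between pro-apoptotic and anti-apoptotic members of the same libraries. No p-value is given, since members are not replicates.

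BCL2 family proteins decide at the mitochondrial outer membrane whether a cell starts intrinsic apoptosis. The effectors BAX and BAK form pores that release cytochrome c, the anti-apoptotic proteins BCL2, BCL-XL and MCL1 bind and restrain them, and BH3-only proteins relay stress by engaging the restrainers, the effectors or both. Pluripotent stem cells of mouse and human are known for a low threshold to this pathway. Loss of Mcl1 in the mouse stops development around implantation, and MCL1 protein is short-lived. GSK3 marks MCL1 for breakdown, as is known from other mammalian cells, an effect on protein that RNA levels do not measure.

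Values are RPKM, which scales reads to gene model length in kilobases and to 1000000 reads of the library, so levels of different genes are set beside each other per length. Whole-read steps found in part of the table give read totals of 2991184 (replicate 1) and 3050685 (replicate 2), the smallest that fit. Markers of embryonic stem cells were high, with 6 of 6 at 10 RPKM or more, from Esrrb at 70.5 ± 4.95 RPKM to Utf1 at 655 ± 14.1 RPKM. Of 8 fibroblast and feeder cell markers 3 reached a mean of 1 RPKM, led by Col1a1 at 4.70 ± 1.86 RPKM, with Col1a2, Lum, S100a4 and Acta2 listed at 0. Their summed level was 5.92 and 10.9 RPKM (replicates 1 and 2), and their part in the values below was not tested. Of 4 blood cell markers none reached 1 RPKM, with Cd68 highest at 0.964 ± 0.182 RPKM. In bulk RNA, fewer cells that express a gene and less RNA per cell cannot be told apart. Of 6 housekeeping genes 5 reached 1 RPKM, with Actb highest at 719.8 ± 6.92 RPKM. Hprt1, which every cell uses and which had 2 rows that were summed, was at 0.764 and 0 RPKM (replicates 1 and 2). A value of 0 thus cannot be read as an unexpressed gene. Gapdh, a glycolysis gene that is abundant in most cells, was at 26.2 and 20.3 RPKM (replicates 1 and 2), below Pmaip1 and Bbc3, so values above 0 may also lie far from a gene's true level.

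A mean of at least 1 RPKM, called detected here, was reached by 9 of the 10 members, against 46.4% of all genes. At least 10 RPKM was reached by 7 members, against 29.4% of all genes. The same 9 members passed a minimum of 0.3 RPKM, which 53.1% of all genes passed, and one of 3 RPKM, which 40.0% passed. The median over the members was 20.4 ± 1.47 RPKM, against 0.536 ± 0.0284 RPKM over all genes. Among detected genes alone the median was 16.8 and 16.6 RPKM (replicates 1 and 2), so the typical member lay near the typical detected gene. The members were chosen as known apoptosis genes, and these counts describe them without a test.

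Both extremes of the family were anti-apoptotic genes. Mcl1 was the highest member and Bcl2 the lowest, and the 7 pro-apoptotic members lay between them in both replicates.

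**Figure D1:**
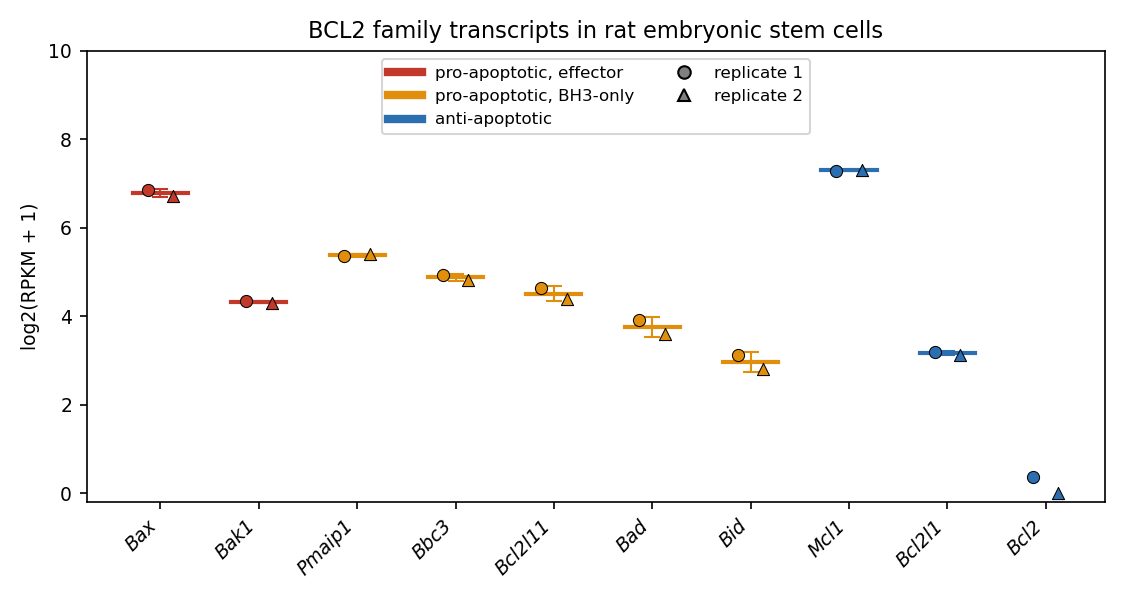
Level of each member on the log2(RPKM + 1) scale, with replicate 1 as circles and replicate 2 as triangles; horizontal lines are means and error bars SD (n = 2), left out for Bcl2, which is listed at 0 in replicate 2. Bax leads the pro-apoptotic members at 109 RPKM, below Mcl1 at 156 RPKM, and Bcl2 lies far below all others.

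The effectors were both expressed, Bax well above Bak1. Bax (Entrez gene 24887, rn5 chromosome 1, 102530747 to 102536153, minus strand), whose protein moves from the cytosol to mitochondria to form pores, was at 114 and 104 RPKM (replicates 1 and 2). Its mean of 109 ± 7.34 RPKM ranked 832nd of all genes, above 92.3% of detected genes. Bak1 (Entrez gene 116502, rn5 chromosome 20, 7675062 to 7683674, minus strand), whose protein resides in the outer membrane, was at 19.2 and 18.8 RPKM (replicates 1 and 2). That is near the middle of detected genes, above 53.5% of them. Per length, Bax was 5.75 ± 0.306 times as abundant as Bak1, by 5.97 times in replicate 1 and 5.54 times in replicate 2. The ratio of the Bak1 values is that of the library totals, 1.02, which equal read numbers give, so the small SD of Bak1 says little about its precision.

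The BH3-only genes all lay below Bax, with Pmaip1 and Bbc3 highest by mean. Pmaip1, which encodes NOXA, a protein that binds MCL1 (Entrez gene 492821, rn5 chromosome 18, 61365056 to 61369043, plus strand), was at 39.9 and 41.2 RPKM (replicates 1 and 2). Bbc3, which encodes PUMA, a protein that binds all the main anti-apoptotic members (Entrez gene 317673, rn5 chromosome 1, 79520749 to 79521829, plus strand), was at 29.7 and 27.3 RPKM (replicates 1 and 2). Both genes are known to be induced by stress.

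Bcl2l11, which encodes BIM (Entrez gene 64547, rn5 chromosome 3, 126571721 to 126601829, minus strand), was at 23.8 and 19.97 RPKM (replicates 1 and 2). It was the median of the BH3-only members and of all 7 pro-apoptotic members. Bad, whose protein binds BCL2 and BCL-XL and is held in check by phosphorylation (Entrez gene 64639, rn5 chromosome 1, 229189386 to 229198305, plus strand), was at 14.0 and 11.03 RPKM (replicates 1 and 2). Bid, whose protein links death receptors to mitochondria after cleavage by caspase-8 (Entrez gene 64625, rn5 chromosome 4, 220532879 to 220554360, minus strand), was lowest at 7.76 and 6.02 RPKM (replicates 1 and 2). Pmaip1 was 5.15 times as abundant as Bid in replicate 1 and 6.85 times in replicate 2.

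Among the anti-apoptotic members, Mcl1 held 94.9% (replicate 1) and 95.3% (replicate 2) of the class's summed RPKM. Mcl1 (Entrez gene 60430, rn5 chromosome 2, 217273158 to 217275930, plus strand) was at 155 and 157 RPKM (replicates 1 and 2). Its mean of 156 ± 1.8 RPKM ranked 492nd of all genes, above 95.5% of detected genes. Bcl2l1, which encodes BCL-XL (Entrez gene 24888, rn5 chromosome 3, 154662586 to 154716802, minus strand), was at 8.11 and 7.72 RPKM (replicates 1 and 2), above 31.4% of detected genes. Mcl1 was thus 19.7 ± 0.927 times as abundant as Bcl2l1 per length. Bcl2 itself (Entrez gene 24224, rn5 chromosome 13, 31758213 to 31919850, minus strand) had 0.284 RPKM (replicate 1) and was listed at 0 in the other library. The value in replicate 1 is that of 1 read in a gene model of 1179 bp, the shortest that fits, and 3 reads in such a model would be 0.851 and 0.834 RPKM (replicates 1 and 2). Both values lie under that floor. Hprt1, though with 2 rows against 1 for Bcl2, had a like pair of values, so no statement on whether the cells express Bcl2 is drawn.

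Neighbours and copies of the members were looked for only among the genes of the deposited table. Copies elsewhere in the genome were not searched, so how many reads they add or take is not known. The table also lists LOC689551, described as a homolog of Mcl-1, at 0.717 and 0.527 RPKM, and LOC293190, described as like Bcl-2-like protein 1, at 0 in both replicates. Both were picked by their descriptions after values were seen. Bcl2l1 was the only member whose locus overlaps that of another listed gene. LOC100363271 lies on the opposite strand, shares 931 bp of the locus and was at 28.4 and 20.4 RPKM (replicates 1 and 2). Whether reads were counted by strand is not given in the sources used here, and without strand the reads of both genes cannot be told apart there.

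Promoter windows, taken from RefSeq on the GRCr8 assembly, run from 250 bases before to 50 bases after a gene's start. They matched 8 of the 10 members, Bax and Bbc3 not among them, with 11 windows in all since Bcl2l1 had several starts. The windows of Mcl1 and Bcl2, the highest and the lowest member, and of Pmaip1, the highest BH3-only gene, are shown because they stand for the highest and lowest level and for the leading BH3-only gene. They are printed 5′ to 3′ along the gene, and capitals mark each CG dinucleotide.
Mcl1, chr2:185907918-185908217, plus strand: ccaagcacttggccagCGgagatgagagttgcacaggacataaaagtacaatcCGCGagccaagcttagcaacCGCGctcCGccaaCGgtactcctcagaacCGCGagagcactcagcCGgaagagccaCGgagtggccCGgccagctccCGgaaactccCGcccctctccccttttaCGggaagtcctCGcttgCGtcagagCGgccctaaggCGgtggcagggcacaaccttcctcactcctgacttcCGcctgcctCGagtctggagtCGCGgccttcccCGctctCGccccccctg
Pmaip1, chr18:62255720-62256019, plus strand: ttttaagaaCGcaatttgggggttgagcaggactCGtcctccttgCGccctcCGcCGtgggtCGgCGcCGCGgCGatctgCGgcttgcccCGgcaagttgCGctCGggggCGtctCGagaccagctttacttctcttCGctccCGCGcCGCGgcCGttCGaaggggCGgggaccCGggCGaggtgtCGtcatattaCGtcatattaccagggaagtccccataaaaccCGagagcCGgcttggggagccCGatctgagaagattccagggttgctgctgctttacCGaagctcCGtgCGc
Bcl2, chr13:23366851-23367150, minus strand: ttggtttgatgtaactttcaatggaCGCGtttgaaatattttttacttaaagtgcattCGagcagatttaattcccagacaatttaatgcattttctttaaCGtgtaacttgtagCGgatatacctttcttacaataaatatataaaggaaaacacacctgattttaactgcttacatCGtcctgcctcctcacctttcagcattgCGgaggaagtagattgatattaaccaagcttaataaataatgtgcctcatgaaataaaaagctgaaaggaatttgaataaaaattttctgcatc
The Mcl1 window holds 25 CG dinucleotides and the Pmaip1 window 34, against 7 in the Bcl2 window. The median over 33469 promoter windows was 7, and at least 25 were found in 16.6% of them and at least 34 in 6.82%. The window of Bcl2l11 held 24, that of Bid 18, that of Bak1 14 and that of Bad 10. The Bcl2l11 window lies on the plus strand of GRCr8, whereas its rn5 locus is on the minus strand. The windows of Bcl2l1 held between 2 and 27. The GC box, GGGCGG on either strand, was in 6 of the 11 windows (1 each of Mcl1, Pmaip1, Bcl2l11, Bid, Bak1 and Bcl2l1), against 33.1% of all windows. Each GC box contains a CG. The letters TATAAA, on either strand, were found in the Bcl2 window alone, against 14.2% of all windows. No match says only that these letters are not in a window.

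The order of the members from high to low was Mcl1, Bax, Pmaip1, Bbc3, Bcl2l11, Bak1, Bad, Bcl2l1, Bid and Bcl2. Of the 9 pairs of neighbours in this order, 8 had replicate values that did not overlap. Bcl2l1 and Bid were the exception, since Bid in replicate 1, at 7.76 RPKM, exceeded Bcl2l1 in replicate 2, at 7.72 RPKM. With 2 replicates such separation is a weak guide, so counting error was set beside it. Fewest whole reads that fit both values were found for 8 of the 10 members, Bax and Bad being without. Mcl1 rested on at least 2609 reads over both libraries, and its 95% Poisson interval ran from 150.1 to 162 RPKM. The fewest were 197 reads for Bcl2l1, 186 for Bbc3, 74 for Bak1, 43 for Bid, 39 for Pmaip1 and 26 for Bcl2l11. Those of Pmaip1 and Bcl2l11 belong to models of only 159 and 197 bp. The true gene model may be a multiple of the length found, in which case more reads lie behind the value and its interval is narrower. By these intervals, which cover counting error only, Pmaip1 (28.9 to 55.5 RPKM) overlapped Bbc3 (24.5 to 32.9 RPKM), Bbc3 overlapped Bcl2l11 (14.3 to 32.01 RPKM), and Bcl2l11 overlapped Bak1 (14.9 to 23.8 RPKM). Bcl2l1 (6.85 to 9.10 RPKM) likewise overlapped Bid (4.98 to 9.27 RPKM). Since these intervals are the widest that fit, their overlap may come from the choice of the shortest model. It neither settles the order of these neighbours nor shows that they are alike. The intervals of Mcl1 and of Bcl2 (0.00355 to 0.782 RPKM) lay apart from the others.

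**Figure D2:**
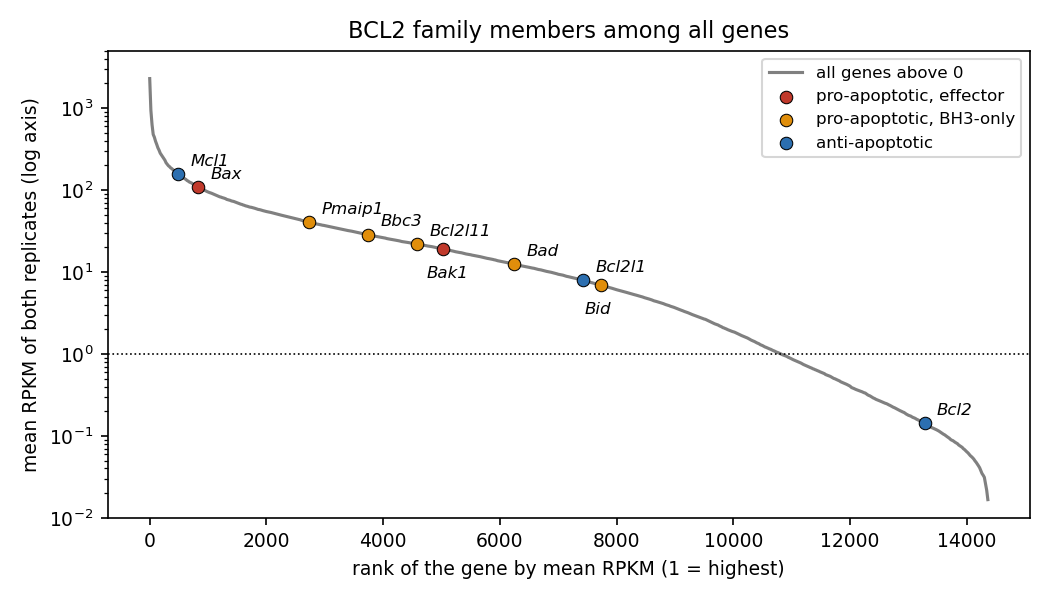
Mean RPKM of both replicates on a log axis against the rank of each gene, with all genes above 0 as a grey line (1 in 20 drawn), the members as points, and a dotted line at 1 RPKM. Mcl1 at rank 492 and Bax at rank 832 sit on the steep upper part of the curve, and Bcl2 is the only member below the dotted line.

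The comparison of pro-apoptotic with anti-apoptotic members gave different answers for each anti-apoptotic gene. All 7 pro-apoptotic members were below Mcl1 in both replicates, 6 of 7 were above Bcl2l1 in both, and all 7 were above Bcl2 in both. Over the 21 pairs of a pro-apoptotic and an anti-apoptotic gene, the pro-apoptotic one was higher in 13 pairs in each replicate, of which 7 are pairs with Bcl2. Without Bcl2 it was higher in 6 of 14 pairs in each replicate. Bax came closest to Mcl1, at 0.740 times its level in replicate 1 and 0.662 times in replicate 2. Pmaip1 was at 0.260 ± 0.00281, Bbc3 at 0.183 ± 0.0130 and Bcl2l11 at 0.140 ± 0.0188 times the level of Mcl1. Against Bcl2l1 the same genes were higher. Bax was 13.8 ± 0.437 times and Bak1 2.40 ± 0.0517 times as abundant as Bcl2l1. The SDs of these ratios leave out counting error. At the fewest reads that fit, that error was 16.0% for Pmaip1 and 11.6% for Bak1, so small SDs say little about precision.

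**Figure D3:**
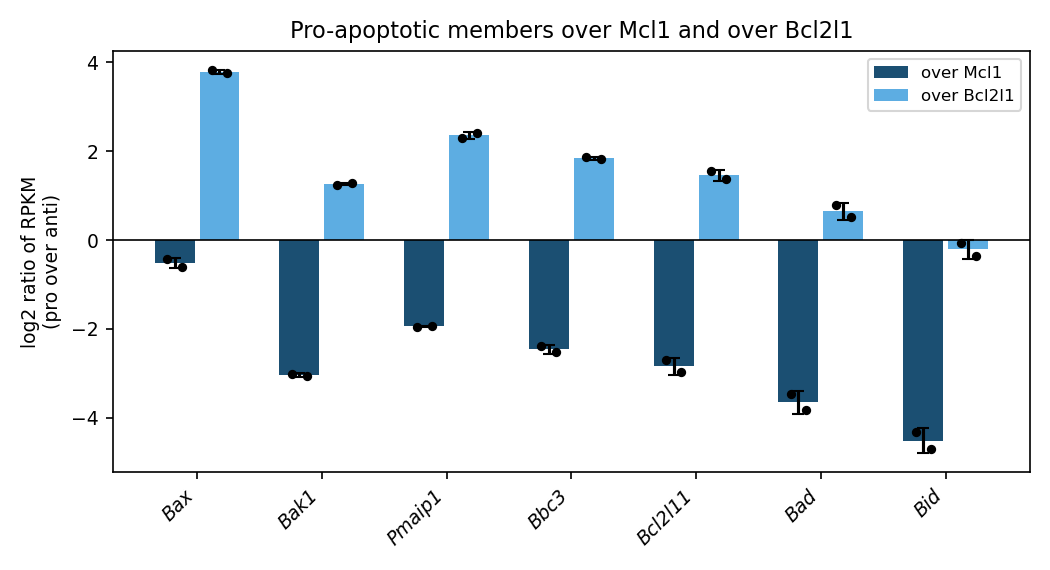
Log2 ratio of the RPKM of each pro-apoptotic member over Mcl1 (dark bars) and over Bcl2l1 (light bars); bars are means, error bars SD (n = 2) and dots the replicates. Each ratio over Mcl1 is below 0, from -0.52 for Bax to -4.51 for Bid, and each over Bcl2l1 is above 0 except that of Bid at -0.21.

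Summarised by class, the median level was 23.8 RPKM over the 7 pro-apoptotic members and 8.11 RPKM over the 3 anti-apoptotic members in replicate 1, and 19.97 RPKM against 7.72 RPKM in replicate 2. On the log2(RPKM + 1) scale, which understates differences at low levels, the pro-apoptotic median lay above the anti-apoptotic one by 1.35 ± 0.12 (SD, n = 2). The effectors lay above by 2.40 ± 0.01. The BH3-only members lay above by 1.35 ± 0.12, the same value, since Bcl2l11 is the median of both sets. These differences exceed the spread between the replicates, but that spread leaves out the choice of members. The direction rests on Bcl2. With Bcl2 left out as the only member under 1 RPKM, the pro-apoptotic median lay below the anti-apoptotic one by a difference of -0.72 ± 0.16, and so did that of the BH3-only members, while the effectors lay above by 0.33 ± 0.04.

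By summed RPKM the classes were closer. The pro-apoptotic members held 60.4% of the members' summed RPKM in replicate 1 and 58.1% in replicate 2, and the anti-apoptotic members 39.6% and 41.9%. Mcl1 alone held 38.8 ± 1.71% and Bax 27.1 ± 0.940%. Pmaip1 held 10.1 ± 0.553% and Bbc3 7.07 ± 0.191%, and each of the remaining 6 members held less. Without Mcl1 and Bax, the highest of each class, the pro-apoptotic share was 94.1%. RNA shares are not protein shares, and none of these values measures protein.

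Other genes of the BCL2 family added more RNA with a BH3-bearing product than RNA of anti-apoptotic genes. The summed level of 6 other BH3-bearing genes was 262.7 ± 0.211 RPKM, against 15.03 ± 0.664 RPKM for 3 other anti-apoptotic genes. Bok, an effector-like gene, was at 47.9 and 40.6 RPKM (replicates 1 and 2), which is 2.33 ± 0.240 times the level of Bak1. Among 6 other BH3-bearing genes, all detected, Bnip3 was highest at 119 ± 1.64 RPKM. Bnip3 and Bnip3l (52.9 ± 1.24 RPKM) are best known for the removal of mitochondria, and Becn1 (54.4 ± 0.936 RPKM) for autophagy. Bik, a classical BH3-only gene, was at 32.5 and 26.4 RPKM (replicates 1 and 2), close to Bbc3. Bmf, whose BH3-only protein binds dynein light chain, was lower at 5.63 ± 0.932 RPKM. Hrk was at 1.43 ± 0.204 RPKM.

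Of 3 other anti-apoptotic genes only Bcl2l2, which encodes BCL-W, was detected. It was at 15.2 and 14.3 RPKM (replicates 1 and 2), which is 1.86 ± 0.0174 times the level of Bcl2l1. Bcl2l10 was at 0.311 and 0.305 RPKM (replicates 1 and 2), values that fit 1 read each. Bcl2a1 was listed at 0 in both replicates. With these genes added to each class the pro-apoptotic median lay above the anti-apoptotic one by 3.13 ± 0.12 on the log2(RPKM + 1) scale, but by 0.93 ± 0.08 over the detected genes alone, since Bcl2, Bcl2l10 and Bcl2a1 are 3 of the 6 anti-apoptotic genes. The pro-apoptotic share of summed RPKM was 75.3 ± 0.729%, and 64.0 ± 1.76% without Bnip3, Bnip3l and Becn1. Of 4 other BCL2-like genes Bcl2l13, whose protein is a receptor for mitophagy, was highest at 23.2 and 31.8 RPKM (replicates 1 and 2). Bcl2l12 was at 9.30 ± 1.91 RPKM and Bcl2l14 at 3.58 ± 0.248 RPKM. Bcl2l15 was at 0 and 0.386 RPKM. Of the 24 BCL2 family genes together, 20 were detected, with a median of 16.9 ± 0.462 RPKM.

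Downstream of the mitochondria, the genes listed for the apoptosome and caspases were all detected. Of 5 genes 4 reached 10 RPKM, with a median of 15.8 ± 0.256 RPKM. Casp6 was highest at 119 and 117 RPKM (replicates 1 and 2), followed by Casp2 at 19.96 ± 0.976 RPKM. Casp6 was 10.6 ± 1.22 times as abundant as Casp9, the initiator caspase of the apoptosome, at 11.2 ± 1.14 RPKM. Apaf1, the scaffold of the apoptosome, was at 15.8 ± 0.256 RPKM. Cycs, which encodes cytochrome c, was lowest at 1.11 and 1.64 RPKM (replicates 1 and 2). As for Gapdh, such values may lie far from the gene's true level, so Cycs RNA cannot be read as scarce. All 4 genes of other proteins released from mitochondria were detected, led by Aifm1 at 67.0 ± 1.83 RPKM and Htra2 at 21.6 ± 1.32 RPKM. Diablo, which encodes SMAC, was at 17.4 and 17.0 RPKM, and Endog was at 7.48 and 12.8 RPKM (replicates 1 and 2).

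Inhibitors and substrates of caspases were also mostly detected. Among 5 inhibitor of apoptosis genes Birc5, which encodes the mitotic protein survivin, was highest at 94.97 ± 9.31 RPKM, 9.97 ± 0.280 times the level of Xiap, the direct caspase inhibitor, at 9.55 ± 1.20 RPKM. Birc6 was at 23.2 ± 0.783 RPKM and Birc2 at 18.7 ± 1.47 RPKM, and Birc3 was listed at 0 in both replicates. All 4 genes listed for caspase substrates and DNA breakdown were detected. Parp1 was at 226 ± 3.40 RPKM, Acin1 at 54.5 ± 3.75 RPKM and Dffa, the inhibitor of the caspase-activated nuclease, at 21.98 ± 0.869 RPKM. Dffb, which encodes that nuclease and not a caspase substrate, was at 6.57 and 6.44 RPKM (replicates 1 and 2).

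The death receptor arm, which reaches the BCL2 family through Bid, had the lowest median of the 7 pathway lists outside the BCL2 family. Of 9 genes 6 were detected and 1 reached 10 RPKM, with a median of 1.91 ± 0.267 RPKM. The adaptor gene Fadd was highest at 13.3 ± 0.918 RPKM, followed by Tnfrsf1a at 8.37 ± 0.437 RPKM and Tradd at 3.22 ± 1.01 RPKM. Casp8, whose protein cleaves BID, was at 0.0634 and 0.00327 RPKM (replicates 1 and 2). The second value is below that of 1 read in a gene model of 20 kb, 0.0164 RPKM, so it does not stand for whole reads. The death ligand gene Faslg was listed at 0 in both replicates.

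Genes whose proteins act on BCL2 family proteins ranged widely in level. Of 13 listed genes 12 had a row, Huwe1 was not analysed here, and all 12 were detected, with a median of 59.1 ± 3.25 RPKM. Ywhaz, a 14-3-3 protein that holds phosphorylated BAD, was at 391 ± 14.1 RPKM, and Dynll1, a dynein light chain, at 277 ± 12.1 RPKM. The deubiquitinase gene Usp9x, whose protein stabilises MCL1, was at 110.5 ± 7.73 RPKM, and Fbxw7, whose protein marks MCL1 for breakdown and which was matched by gene identifier, was at 18.8 ± 0.572 RPKM. Fbxw7 is named after its value was seen. Foxo3, a transcription factor that can induce Bcl2l11 and Bbc3, was at 13.4 ± 0.949 RPKM, and Mapk8, which encodes the kinase JNK1, at 6.96 ± 0.544 RPKM. Of 9 genes listed for the mitochondrial outer membrane, mitochondrial shape and their partners 7 were detected. Tmbim6, whose protein lies in the endoplasmic reticulum and not in mitochondria, was highest at 244 ± 12.98 RPKM. Vdac2, whose protein binds BAK, was at 144 ± 4.82 RPKM, and Vdac3 at 116 ± 4.02 RPKM. Mfn2 was at 0.432 and 0.678 RPKM and Mff was listed at 0 in both replicates.

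**Figure D4:**
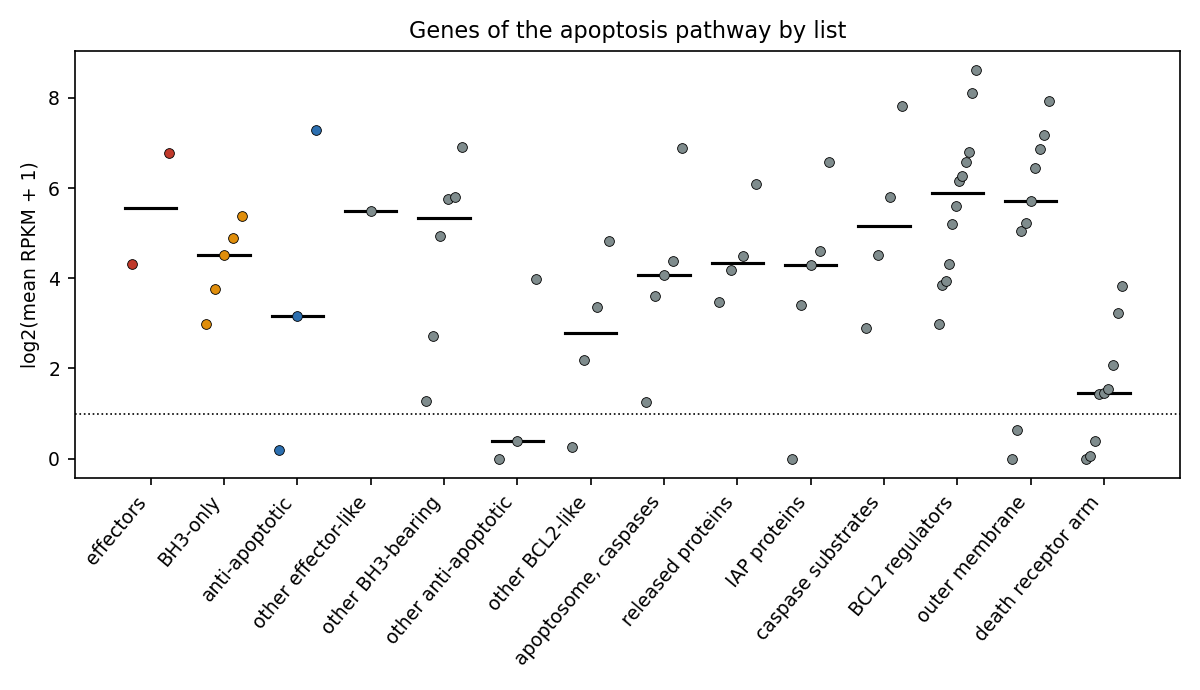
Level of each gene on the log2(mean RPKM + 1) scale by list, with lines at list medians and a dotted line at 1 RPKM; the members are coloured and genes are ordered by level within a list. The death receptor arm has a median of 1.91 RPKM, and beside Mcl1 at 156 RPKM the next anti-apoptotic gene, Bcl2l2, is at 14.7 RPKM.

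The replicates matched for the members about as closely as for all detected genes. None of the 9 detected members differed by over 25% in RPKM + 1, against 15.9% of 10814 detected genes. This count depended on the pseudocount. With 0.1 in place of 1, the log2 ratios of Bad (-0.34) and Bid (-0.36) passed the limit. The share of all detected genes past the limit was not computed with 0.1, so no comparison with other genes is drawn there. With the pseudocount of 1, the median size of the log2 ratio was 0.12 over these 9 members and 0.12 over all detected genes. Bad (-0.32) and Bid (-0.32) moved most, both lower in replicate 2. Of genes within 2-fold of its level, 14.5% had a larger ratio than Bad and 23.8% a larger one than Bid. Of the 10 members 8 were lower in replicate 2, against 55.2% of the 14380 genes above 0 in either replicate, and Mcl1 and Pmaip1 were higher there. The replicates belong to 1 group, so these differences describe the precision of the levels.

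**Figure D5:**
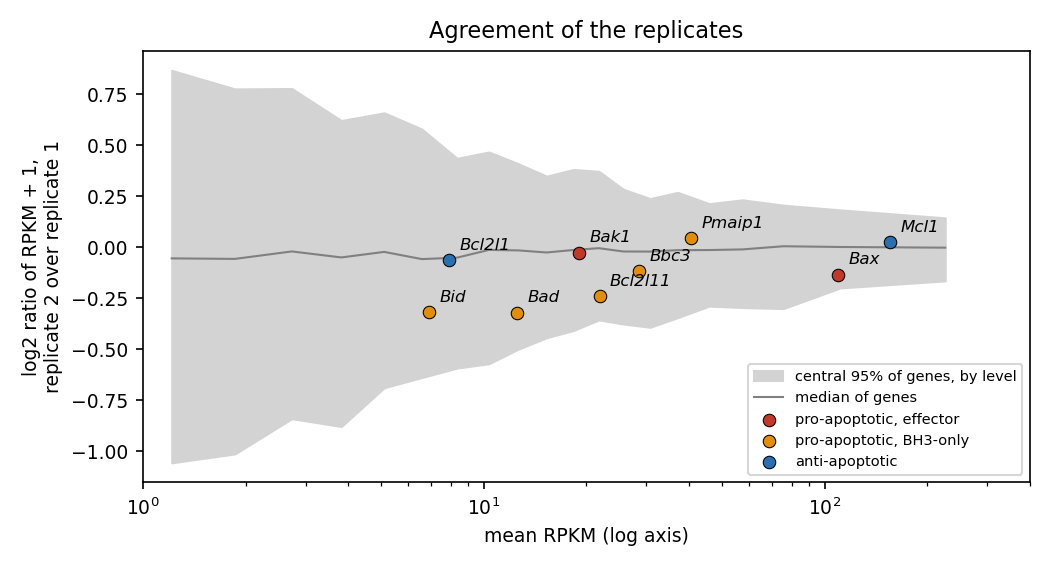
Log2 ratio of RPKM + 1 in replicate 2 over replicate 1 against mean RPKM (log axis), with the 9 detected members as points, the central 95% of detected genes in bins of level as the grey band and their median as a line. All 9 members lie within the band, and Bad and Bid lie lowest at -0.32.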

How the data were processed

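Total RNA of 2 wild-type samples was measured by RNA sequencing with paired 50-bp reads. The RPKM values were computed by the authors and deposited as a single gene table, whose column names repeat the sample titles. The submitters' processing notes name TopHat 1.4.0, CASAVA 1.8 and the rat builds Rnor_5.0 and rn5. Which tool counted the reads, on which annotation, and how multiply mapped reads were treated is not given in the sources used here. Rows of the same Entrez identifier were summed, and each member had 1 row. Listed genes were matched by symbol, otherwise by identifier through a RefSeq table of GRCr8.

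Count models were not used on RPKM. Read totals are the smallest at which the number of rows with whole reads was near its maximum, among rows with a locus under 6000 bp. They made 527 of 2700 rows whole in replicate 1 and 525 of 2688 in replicate 2. A multiple of such a total would make the same rows whole. Reads behind a value used the shortest model of at least 60 bp, at most 20000 bp or the locus, that made both replicates whole within a relative tolerance of 3e-07. Of 1000 rows drawn at random between 5 and 200 RPKM, 73.5% gave such reads, and 1.20% after a slight shift of the values. At these totals 3 reads in a model of 2 kb are 0.501 and 0.492 RPKM (replicates 1 and 2). The procedures were tested on simulated data. There the read totals were sought with the true model lengths. Reads found in a shorter model, in proportion to its length, counted as recovered. The simulation therefore does not show how far the read numbers are understated.

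The members and lists were chosen with earlier results of these data known. All members and other BCL2 family genes are named, and of each other list the 3 highest and 2 lowest genes. Some genes of the pathway are not reported here and were left out of the lists. Of the marker and housekeeping lists only single genes are given. No gene is named for a pattern like a member's, since 2 libraries of 1 group give no pattern. Alternatives were another pseudocount (0.1 in place of 1), each replicate alone, rescaled libraries, the highest row per gene, class means, a detection minimum of 0.3 or 3 RPKM, other member sets and centred ratios. The SD covers only the spread between these 2 samples. Tools were matplotlib 3.10.9, scipy 1.17.1, pandas 2.3.3 and numpy 2.4.6, run under Python 3.11.15.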

Additional observations from a re-analysis of the deposited data

How the results depend on the processing

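No paired analysis was possible because both samples form 1 group. The excess of the pro-apoptotic over the anti-apoptotic median (log2(RPKM + 1)) was 1.11 with class means, 3.13 with other BCL2 family genes added and 2.75 without the highest member of each class, and it turned to -0.72 when Bcl2, under 1 RPKM, was left out. For BH3-only members it was 0.75 with class means and 3.09 with other family genes, and turned to -0.72 when Bcl2 was left out. For effectors it was 2.51 with a pseudocount of 0.1, 2.47 with libraries rescaled to a sum of 1000000, 2.01 with class means, 3.72 with other family genes and 0.33 when Bcl2 was left out. The pro-apoptotic share of summed RPKM was 94.1% without the highest member of each class and 75.3% with other family genes. With each replicate alone the differences ran from 1.27 to 1.44 for pro-apoptotic and for BH3-only members and from 2.39 to 2.40 for effectors, the share from 58.1% to 60.4%, and 9 members were detected in each. The count of 9 also held at minimums of 0.3 and 3 RPKM and with the highest row per gene. With other family genes added, the pro-apoptotic excess was 0.93 over detected genes alone and 2.74 without Bnip3, Bnip3l and Becn1, where the share was 64.0%. These last settings were chosen after seeing the data. Depth limits the precision of members that may rest on few reads.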
